A study of Rattus norvegicus with 20 samples.

Results

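The natriuretic peptide and cardiac contractile genes were a set of 5 rat genes chosen by name and Ensembl identifier, with earlier results of these data known but by a rule that uses no measured response to stress: Nppa (ENSRNOG00000008176), Nppb (ENSRNOG00000008141), Myh7 (ENSRNOG00000016983), Myh6 (ENSRNOG00000025757) and Acta1 (ENSRNOG00000017786). All 5 were found among the 24160 features of the count table. The 20 libraries came from 10 male Sprague-Dawley rats of 250 to 300 g, each giving a brain and a left ventricle (LV) library. In the stress cardiomyopathy (SCM) group, 5 rats were subjected to immobilization (6 h, 7 days), and the other 5 formed the normal control group. Per the study's methods the rats of both groups were anesthetized, with an agent and a time that are not stated there. The part of the brain sampled is not given in the sources used here. The question was whether these genes differed between SCM and control rats in either tissue.

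Nppa and Nppb encode atrial and B-type natriuretic peptide, hormones that heart muscle cells release under wall stretch and that promote salt and water loss and widen vessels. Myh6 and Myh7 encode the alpha and beta myosin heavy chains, the fast and the slow motor of the cardiac thick filament, and Acta1 encodes skeletal muscle alpha-actin, a thin filament protein. In rodents the beta chain, skeletal actin and ventricular Nppa belong to the fetal gene programme, which pressure overload and heart failure are known to switch on again while the alpha chain declines.

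The table pairs no identifier with a symbol, so the names are those given with the 5 identifiers and were checked only by tissue. On the scale of CPM (counts scaled to a common library total), the lowest control LV library exceeded the highest control brain library for each of the 5 genes. Nppa stood at 223 CPM against 7.73 CPM, 28.9-fold apart. Nppb stood at 57.7 CPM against 0.410 CPM, 141-fold apart. This difference was required for a gene to be kept and is given as a description. Myh7 stood at 1278 CPM against 2.70 CPM (473-fold), Myh6 at 2321 CPM against 105 CPM (22.2-fold) and Acta1 at 159 CPM against 11.04 CPM (14.4-fold). Markers of the cell types in each tissue were not analysed here, because they could not be matched to identifiers.

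Nppb and Nppa lie next to each other on chromosome 5 with 0 annotated genes between them, and their promoter windows are shown because their levels are set against each other below. The windows run from 250 bases before to 50 bases after the RefSeq transcription start (GRCr8, a different build from that of the counts, both on the plus strand), at chr5:163711934-163712233 for Nppa and chr5:163699758-163700057 for Nppb. Capitals mark matches to a GATA site (GATAA, either strand), an M-CAT element (CATTCC or its reverse complement GGAATG) and a TATA box (TATAAA, window strand only), and none of the matches overlap.
Nppa: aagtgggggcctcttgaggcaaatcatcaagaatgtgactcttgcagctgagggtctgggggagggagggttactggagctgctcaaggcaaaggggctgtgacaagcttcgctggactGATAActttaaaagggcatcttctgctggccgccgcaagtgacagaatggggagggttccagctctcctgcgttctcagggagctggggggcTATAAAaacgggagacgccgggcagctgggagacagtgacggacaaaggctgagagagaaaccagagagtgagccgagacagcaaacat
Nppb: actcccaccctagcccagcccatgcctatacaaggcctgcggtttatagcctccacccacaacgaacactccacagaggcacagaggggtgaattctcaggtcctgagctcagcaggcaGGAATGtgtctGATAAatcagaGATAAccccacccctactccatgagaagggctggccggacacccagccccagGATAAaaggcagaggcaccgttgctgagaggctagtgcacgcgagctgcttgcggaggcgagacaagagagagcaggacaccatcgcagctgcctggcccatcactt
The Nppa window held a GATAA at −131 and a TATAAA at −39. The Nppb window held GATAA at −120, −109 and −57 and a GGAATG at −131. Of 33469 windows of this length in the RefSeq table, 26.5% held GATAA, 14.2% held CATTCC on either strand and 8.8% held TATAAA, so these matches are a description of the letters only.

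Myh6 and Myh7 are also neighbours, on chromosome 15, with 0 protein-coding genes between them. Each carries a microRNA inside its span. These are shown because they are encoded within the compared myosin genes, with the seed (bases 2 to 8) in capitals. They were not measured in these libraries.
rno-miR-208a-3p (Myh6): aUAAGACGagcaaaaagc
rno-miR-208b-3p (Myh7): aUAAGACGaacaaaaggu
Both RefSeq sequences have 18 bases and share the seed, and their 3 differing bases all lie outside it.

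Library totals ran from 22386526 to 36251990 counts. The closest 2 libraries of a group still differed by 11.6 times the sampling variance, so all 20 were used as separate samples. In the LV, 727 of 13954 genes tested passed an adjusted p of 0.05 (5.21%), whereas 28 of 16002 did so in the brain (0.175%). The LV libraries of control rat 5 and SCM rat 1 stood somewhat apart, with median correlations of 0.963 and 0.966 with the other LV libraries against 0.972 to 0.977 for the other 8.

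None of the 5 genes passed the test between SCM and control in the LV. With the edgeR quasi-likelihood test 0 of 5 passed, against a background of 5.21%. At an unadjusted p under 0.05 it was 0 of 5 (background 23.2%). With DESeq2 (11.9%) or limma-voom (4.71%) 0 of 5 passed. Without control rat 5, Myh6 alone of the 5 had an unadjusted p under 0.05 (0.0322, edgeR). The share of all genes at that cut was not computed for this fit, so this count has no background. Adjusted calls over all genes were 997 in this fit, against 727 with all LV libraries. With all LV libraries, fitted log2 differences lay between −0.42 (Acta1) and 0.44 (Myh6), beside a median of −0.012 over all genes tested. The intervals were wide: each of the 5 95% intervals included 0, and a failed test here does not show equal levels. In whole tissue, fewer cells of a type and less RNA per cell cannot be told apart.

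**Figure D1:**
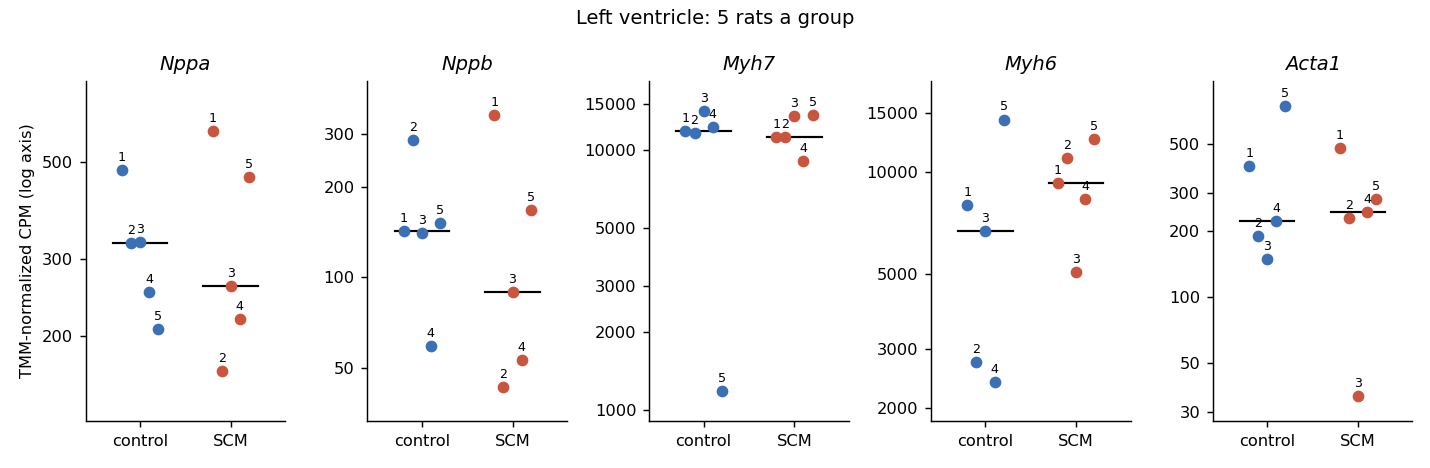
LV level of each gene in TMM-normalized CPM on a log axis, with 5 control rats in blue and 5 SCM rats in red. Points are rats labelled by replicate number and lines are group medians; the groups overlap for every gene, and control rat 5 lies at 1184 CPM for Myh7.

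Nppa was at 481, 327, 328, 252 and 207 normalized CPM in control rats 1 to 5. In SCM rats 1 to 5 it was at 591, 166, 259.8, 219 and 462 normalized CPM. The SCM group held both the lowest and the highest rat, and the groups overlapped throughout. The means were 319 ± 104 and 339 ± 179.9 normalized CPM (SD, n = 5 each). On the log2 scale SCM minus control was 0.089 (SE 0.33, 95% interval −0.63 to 0.81, edgeR adjusted p = 0.901). It turned negative when control rat 5 (−0.032), SCM rat 1 (−0.21) or SCM rat 5 was left out.

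Nppb was at 142, 287, 140.2, 59.2 and 151 normalized CPM in control rats 1 to 5, and at 346, 43.2, 89.0, 53.1 and 168 normalized CPM in SCM rats 1 to 5. SCM rat 1 was again the highest and SCM rat 2 the lowest, an 8.02-fold range within the SCM group beside 4.84-fold in controls. The means were 156 ± 82.1 and 139.9 ± 125 normalized CPM (SD, n = 5 each). Nppb differed by −0.16 on the log2 scale (SE 0.54, 95% interval −1.33 to 1.02, edgeR adjusted p = 0.893), an interval from 0.397-fold to 2.03-fold. Its sign changed without control rat 2, SCM rat 2 or SCM rat 4, with values over single omissions from −0.82 (without SCM rat 1, edgeR adjusted p = 0.343) to 0.18.

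Myh7, the slow motor by the name given with its identifier, was at 11811, 11628, 14160, 12286 and 1184 normalized CPM in control rats 1 to 5. In SCM rats 1 to 5 it was at 11221, 11179.8, 13461, 9088 and 13682 normalized CPM. Control rat 5 was far below all 9 other LV libraries, and SCM rats 1, 2 and 4 also lay below control rats 1 to 4. SCM minus control was 0.20 on the log2 scale (SE 0.45, 95% interval −0.78 to 1.18, edgeR adjusted p = 0.828). Without control rat 5 it was −0.088 (SE 0.12, adjusted p = 0.698).

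Myh6, the fast motor by the name given with its identifier, was at 8002, 2733, 6683, 2383 and 14309.9 normalized CPM in control rats 1 to 5. In SCM rats 1 to 5 it was at 9263, 10987, 5052, 8338 and 12536 normalized CPM. Control rats 2 and 4 were the lowest and control rat 5 the highest of all 10, so that the SCM values lay within the control range. The means were 6822 ± 4845 and 9235 ± 2840.1 normalized CPM (SD, n = 5 each). The fitted log2 difference was 0.44 (SE 0.43, 95% interval −0.50 to 1.38, edgeR adjusted p = 0.579). It was positive in all 19 alternative settings, from 0.22 to 0.90 with adjusted p from 0.156 to 0.787. The highest value, 0.90 (SE 0.37), came without control rat 5.

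Acta1 was at 396, 190.1, 149, 224 and 744 normalized CPM in control rats 1 to 5, and at 479, 229.8, 35.6, 245 and 281 normalized CPM in SCM rats 1 to 5. Control rat 5 was the highest and SCM rat 3 the lowest, and the other 8 rats lay between them without separation by group. The log2 difference was −0.42 (SE 0.56, 95% interval −1.65 to 0.80, edgeR adjusted p = 0.693), 0.085 without control rat 5, and −0.78 without SCM rat 1. Reads of the near-identical actin genes, like those of Myh6 and Myh7, may have been shared between copies in counting, and how such reads were handled is not given in the sources used here.

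**Figure D2:**
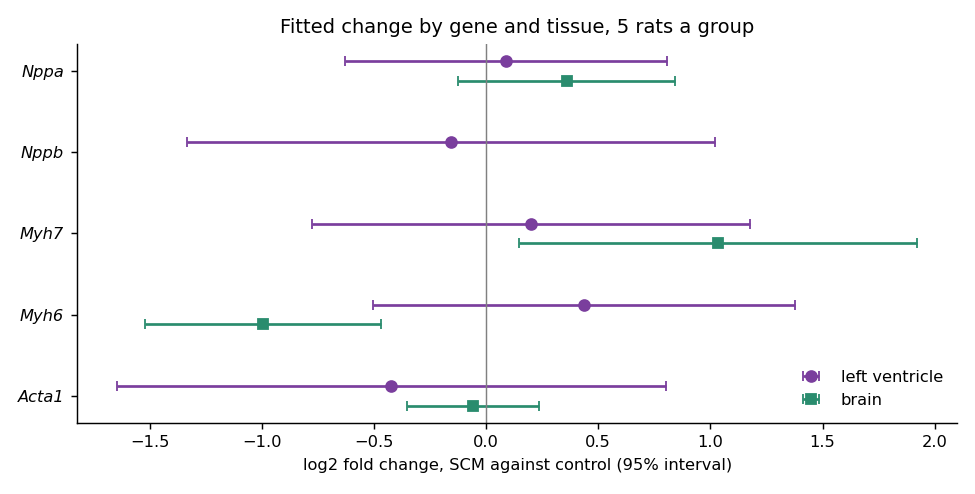
Fitted log2 difference, SCM minus control, for each gene in LV and brain, with 95% intervals as bars. Every LV interval includes 0, whereas the brain intervals of Myh6 (−1.52 to −0.47) and Myh7 (0.15 to 1.92) do not.

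The members were also compared by their spread between rats. As a description, the pooled within-group SD of log2 CPM in the LV was 1.2002 for Acta1, 1.09 for Myh7, 1.04 for Nppb, 0.85 for Myh6 and 0.63 for Nppa. All 5 were above the median over the 1295 genes with a mean of at least 100 CPM (0.16, not matched further on abundance), and 0, 1, 6, 15 and 36 of those genes had a larger SD than the respective gene. Leaving out control rat 5 lowered the SD of Myh7 to 0.20, beside a median of 0.138 then, with 326 genes above it. The other SDs were then 1.14 for Acta1, 1.11 for Nppb, 0.69 for Myh6 and 0.63 for Nppa, with at most 25 genes above any of them.

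The RefSeq table lists Myh7 among the older names of Myh6, and the tissue check cannot tell the 2 myosins apart, so which chain each identifier stands for rests on the names given with them. The balance of the 2 myosins was examined as the Myh7 percentage of Myh6 plus Myh7 counts. It was 59.6%, 81.0%, 67.9%, 83.8% and 7.64% in control rats 1 to 5. In SCM rats 1 to 5 it was 54.8%, 50.4%, 72.7%, 52.2% and 52.2%. Thus 4 SCM rats lay within a narrow band at or below 54.8%, while control rats were spread on both sides of it. By these names, Myh7, of the rodent fetal programme, held the larger share in every LV library except that of control rat 5. Why it did so in the other unstressed controls was not tested. The means were 60.0 ± 30.9% and 56.5 ± 9.22% (SD, n = 5 each), a difference of −3.53 percentage points (exact two-sided permutation p = 0.849). Without control rat 5 the difference was −16.6 percentage points (exact two-sided permutation p = 0.0476), and without control rat 2 or control rat 4 it was 1.71 or 2.41. Over omissions of SCM rats the difference ran from −7.60 (without SCM rat 3) to −2.03 percentage points (without SCM rat 2). Its size therefore depended on which rats of either group were included, and its sign on control rats 2 and 4.

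**Figure D3:**
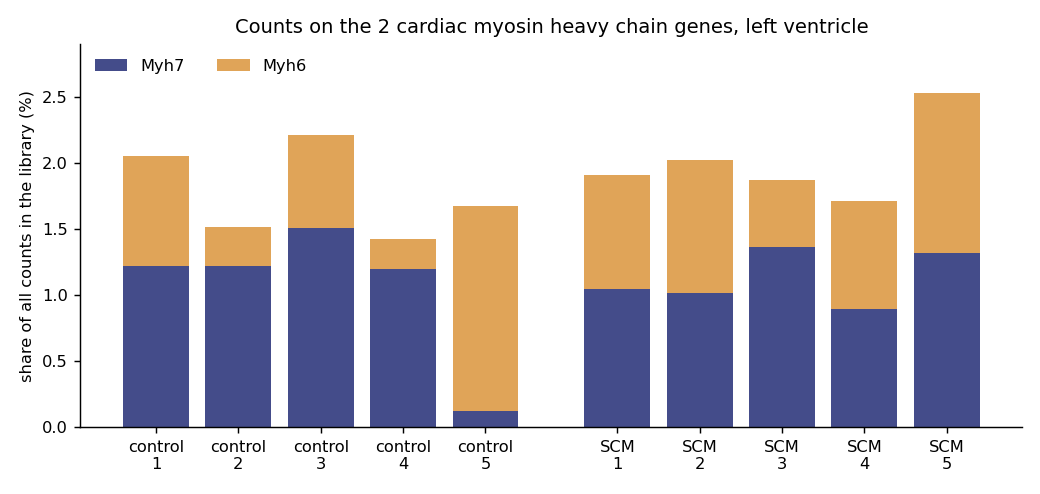
Stacked bars of Myh7 (dark) and Myh6 (light) counts as a percentage of all counts in each of the 10 LV libraries, from 1.43% to 2.53% in sum. Within the bars, the Myh7 share is 7.64% in control rat 5, 59.6% to 83.8% in the other controls and 50.4% to 72.7% in SCM rats.

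The sum of both myosins, added after the data were seen, does not change when a read is moved from 1 gene to the other. The sum could still change if reads shared by both genes were dropped or counted for each. It was 19814, 14359, 20843, 14668 and 15495 normalized CPM in control rats 1 to 5, and 20485, 22166, 18513, 17427 and 26217 normalized CPM in SCM rats 1 to 5. Control rat 5 did not stand apart in the sum. The sum differed by 0.30 on the log2 scale (SE 0.14, 95% interval −0.016 to 0.61, edgeR adjusted p = 0.240), and over 14 alternatives it ran from 0.21 to 0.38 with adjusted p from 0.161 to 0.459.

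Pairs of members were then compared over the 10 LV libraries on the log2 scale, with 10 pairs tested. Nppa and Nppb had the highest Pearson correlation (Pearson r = 0.76, permutation p = 0.0113, adjusted p = 0.113 over the 10 pairs; Spearman rho = 0.70, permutation p = 0.0299, adjusted p = 0.1496). After subtraction of the group means r was 0.78. Leaving out the 2 libraries farthest from the median, SCM rats 1 and 2, gave r = 0.52 (permutation p = 0.192), so the relation rested partly on these rats. Without control rat 5, r was 0.86 (permutation adjusted p = 0.0424).

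**Figure D4:**
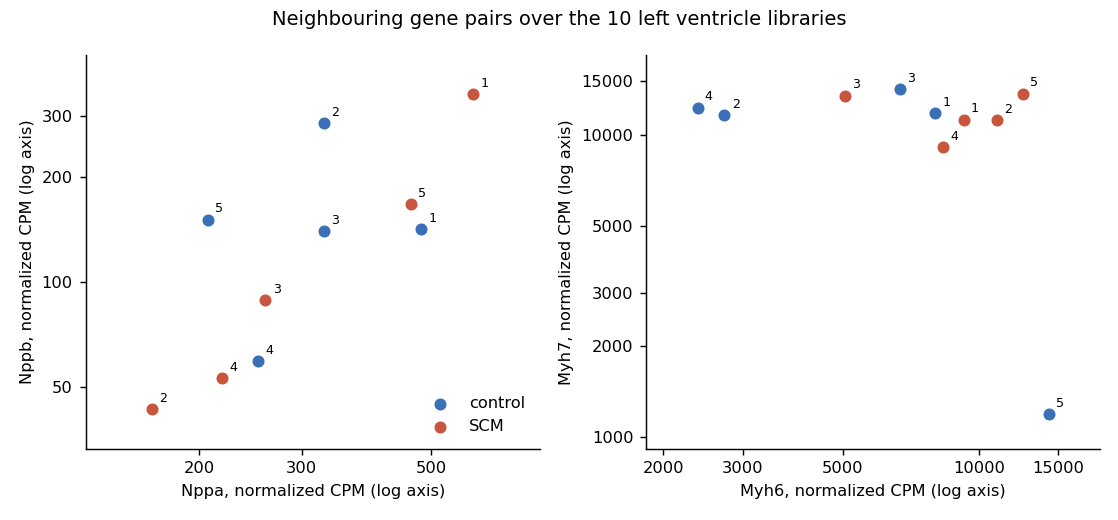
Nppb against Nppa (left) and Myh7 against Myh6 (right) in the 10 LV libraries, in normalized CPM on log axes, with replicate numbers beside the points. SCM rat 1 is highest and SCM rat 2 lowest for both peptides, and control rat 5 lies alone at high Myh6 and low Myh7.

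The log2 ratio of Nppb to Nppa was −1.14 ± 0.82 in controls and −1.55 ± 0.50 in SCM rats (SD, n = 5 each), and did not pass the test (difference −0.41, exact two-sided permutation p = 0.349, −0.24 without control rat 5, and from −0.17 without control rat 2 to −0.64 without control rat 4). Myh6 and Acta1 had r = 0.47 (permutation p = 0.181, adjusted p = 0.604) and rho = 0.73 (permutation p = 0.0206, adjusted p = 0.1496), the highest rho of the 10 pairs. Without control rats 2 and 4, the farthest from the median, r was 0.81, and without control rat 5, the highest for both genes, it was 0.33 (permutation adjusted p = 0.736). Myh7 and Myh6 had r = −0.43 (permutation p = 0.245, adjusted p = 0.612; rho = −0.44), r = −0.62 after subtraction of the group means, and r = 0.030 without control rat 5 and SCM rat 4, the farthest from the median. Without control rat 5 alone r was −0.11 (0.090 after subtraction of the group means) and without SCM rat 4 alone it was −0.43, so the inverse relation rested on control rat 5. No pair passed the adjusted threshold over all 10 libraries.

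Among 12476 genes, the 3 most like each member across the 10 LV libraries, after subtraction of group means, had r from 0.93 to 0.98, as a description. None of these was another member. Nppb ranked 105 for likeness to Nppa, and Nppa ranked 110 for likeness to Nppb. The most like Myh6 was ENSRNOG00000006067 and the most like Myh7 was ENSRNOG00000018286, identifiers that the table does not pair with names. Without control rat 5 the first had r = 0.97 and the second r = 0.61, so the likeness to Myh7 rested largely on that rat.

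In the brain, 0 of the 4 members tested passed with edgeR, beside a background of 0.175%, and 2 had an unadjusted p under 0.05 (Myh6 and Myh7), a cut that 14.3% of all genes tested passed. DESeq2 called Myh6 only, against a background of 2.62% (402 genes), and limma-voom called 0 (0.181%). Nppb did not pass the filter on low counts.

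Myh6 was at 74.1, 104, 79.5, 48.9 and 75.8 normalized CPM in the brains of control rats 1 to 5. In SCM rats 1 to 5 it was at 44.1, 21.8, 56.7, 28.1 and 41.4 normalized CPM. Only control rat 4 and SCM rat 3 overlapped. The means were 76.5 ± 19.7 and 38.4 ± 13.8 normalized CPM (SD, n = 5 each), with a log2 difference of −0.99 (SE 0.24, 95% interval −1.52 to −0.47, unadjusted p = 0.00134, edgeR adjusted p = 0.127). With DESeq2 the adjusted p was 0.00284 at −0.99. Without SCM rat 3 it was 0.0451 at −1.18 with edgeR, and over all alternatives adjusted p ran from 0.00284 to 0.415.

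Myh7 was at 2.61, 1.81, 2.40, 0.970 and 1.67 normalized CPM in control brains 1 to 5, and at 2.28, 8.71, 3.44, 2.21 and 2.69 normalized CPM in SCM brains 1 to 5. SCM rat 2 was far above the other 9 brains. The log2 difference was 1.04 (SE 0.41, 95% interval 0.15 to 1.92, unadjusted p = 0.0256, edgeR adjusted p = 0.285). Without SCM rat 2 it was 0.49 (SE 0.30, adjusted p = 0.551).

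Nppa was at 7.38, 4.25, 5.86, 6.44 and 7.40 normalized CPM in control brains and at 8.15, 11.1, 9.70, 5.60 and 5.57 in SCM brains, in replicate order. The log2 difference was 0.36 (SE 0.22, 95% interval −0.12 to 0.84, edgeR adjusted p = 0.472), and 0.21 without SCM rat 2. Acta1 was between 8.67 and 11.1 normalized CPM in control brains and between 7.39 and 11.1 in SCM brains, with a log2 difference of −0.058 (SE 0.14, 95% interval −0.35 to 0.24, edgeR adjusted p = 0.871). The groups overlapped for both genes. Nppb had 0, 0, 0, 12 and 1 counts in control brains and 8, 29, 3, 4 and 5 counts in SCM brains, and a count of 0 allows up to 3 counts, or 0.134 CPM in the smallest brain library.

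The brain library of SCM rat 2, highest for Nppa, Nppb and Myh7, also held more of the 27 other genes that were at least 1000-fold higher in control LV than in control brain. Their sum was 38.0 CPM there, against 15.5 to 17.0 CPM in the other SCM brains and 9.22 to 17.5 CPM in controls. The control brain levels were used to choose these genes, which can lower the control sums. The part of these genes in the Myh7 difference was not tested. For Myh6, SCM rat 2 had the lowest brain level and control rat 2, with the lowest sum, the highest. The Myh6 difference was −0.85 on the log2 scale without SCM rat 2 (edgeR adjusted p = 0.171) and −0.86 without control rat 2 (edgeR adjusted p = 0.243).

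**Figure D5:**
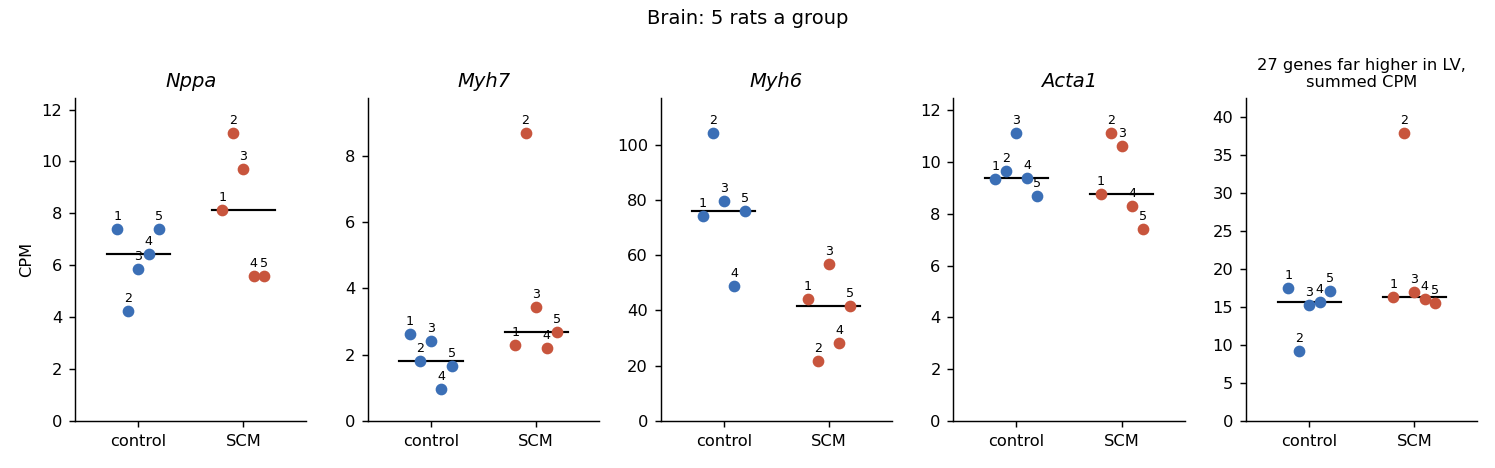
Brain level of Nppa, Myh7, Myh6 and Acta1 in normalized CPM, and the summed CPM of 27 genes far higher in LV, in 5 control (blue) and 5 SCM (red) rats, with lines at the medians. Myh6 is 48.9 to 104 in controls and 21.8 to 56.7 in SCM rats, and SCM rat 2 is highest for Myh7 (8.71) and for the sum (38.0).

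Whether the SCM difference itself differed between tissues was tested in 1 fit over the 20 libraries with the rat as a block. None of the 5 members passed (0 of 5 with edgeR, background 0.754%), and 1 had an unadjusted p under 0.05, as had 13.9% of all 16720 genes tested. That gene was Myh6, with an LV-minus-brain difference of 1.69 on the log2 scale (SE 0.55, 95% interval 0.50 to 2.89, unadjusted p = 0.00911, edgeR adjusted p = 0.185). Over 13 alternatives its adjusted p ran from 0.0765 (without control rat 5, at 2.04) to 0.317. For the other 4 genes the interval of this difference included 0 with all 20 libraries. Myh7 stood at −0.42 (SE 0.63, edgeR adjusted p = 0.827), and at −0.99 without control rat 5 (SE 0.42, unadjusted p = 0.0375, edgeR adjusted p = 0.289). Nppb, with brain counts of 0 to 29, stood at −2.25 (SE 1.34, interval −5.16 to 0.66, edgeR adjusted p = 0.487), and single libraries decided its size: it was −5.30 without control rat 4 (SE 1.62, unadjusted p = 0.00716, edgeR adjusted p = 0.186) and −0.91 without SCM rat 2.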

How the data were processed

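RNA was sequenced from brain and LV of 5 control and 5 SCM rats (NEBNext Ultra RNA libraries). The deposited values were raw gene counts. The submitters' processing notes name HISAT2, SAMtools and StringTie and the build mRatBN7.2, without tool versions, and the counting of multi-mapping reads is not given in the sources used here.

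Within each tissue, genes were filtered with filterByExpr (minimum count 10, minimum total 15), scaled by TMM and tested with edgeR 4.0.16 in R 4.3.3 (quasi-likelihood, Benjamini-Hochberg adjustment over all genes tested, threshold 0.05). The 95% intervals come from the same fit. Normalized CPM are TMM-scaled, and correlations used log2 CPM with a pseudocount of 0.5. Ratios were compared by exact permutation tests over rats. Scripts were tested on simulated data. Alternatives were DESeq2 1.42.0, limma-voom 3.58.1, other filters and scalings, a replicate block and single omissions. Totals of 22386526 to 36251990 counts set the depth, and floors cover counting error only.

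The members and lists were chosen with earlier results of these data known, although the rule that defines the members uses only identifiers and the LV-to-brain check. The rule for named genes took the 5 members and the 3 genes most correlated with each. Of these, only the top identifiers for Myh6 and Myh7 are printed, since the table pairs none with a name. Of 23760 Ensembl identifiers, 0 were paired with symbols by the reference table, so 6 gene lists and 10 marker lists held by symbol were not analysed here. Promoter and microRNA sequences are from RefSeq (GRCr8), which matched 5 members and 2 microRNAs.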

Additional observations from a re-analysis of the deposited data

Results flagged for a closer look

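In 7 of 28 groups of 5 libraries, the highest or lowest library lay far from the others by Dixon's test. Chance would give about 1.4 (1 in 20 groups) if values were normally distributed. CPM entered this test without logs, and several groups share libraries or counts, so these numbers are a description only. In the LV, Myh7 of control rat 5 was 1184 normalized CPM against 11628 to 14160 in the other controls, and the Myh7 share of SCM rat 3 was 72.7% against 50.4% to 54.8% in the other SCM rats. In the brain of SCM rat 2, Myh7 was 8.71 normalized CPM against 2.21 to 3.44, Nppb was 0.862 normalized CPM against 0.110 to 0.276, and the summed genes far higher in LV were 38.0 CPM against 15.5 to 17.0. In control brains, Nppb of rat 4 was 0.416 normalized CPM against 0 to 0.0310, and the summed genes far higher in LV were 9.22 CPM in rat 2 against 15.3 to 17.5. The control brain levels also entered the choice of those genes.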

How the results depend on the processing

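No LV member passed the threshold in any of its 19 alternatives. Myh6 kept a positive LV difference in all of them, whereas the other 4 changed sign in at least 1. With limma-voom and with the replicate block, the LV log2 differences were −0.011 and −0.018 for Nppa, −0.42 and −0.37 for Nppb, 0.58 and 0.42 for Myh7, 0.69 and 0.67 for Myh6, and −0.55 and −0.54 for Acta1. Over single omissions, the LV differences ran from −0.21 to 0.29 for Nppa (negative without control rat 5, SCM rat 1 or SCM rat 5), −0.82 to 0.18 for Nppb (positive without control rat 2, SCM rat 2 or SCM rat 4), −0.088 to 0.35 for Myh7 and −0.78 to 0.085 for Acta1 (both reversed without control rat 5). The Myh7 share difference ran from −16.6 to 2.41 percentage points. In the brain, Myh6 was −0.99 with DESeq2 and −1.18 to −0.85 over single omissions, and Acta1 ran from −0.13 to 0.013 (positive without SCM rat 5). The tissue difference over single omissions ran from −0.63 to 0.016 for Nppa and −0.99 (without control rat 5) to 0.013 for Myh7 (both positive without SCM rat 2), −5.30 (without control rat 4) to −0.91 (without SCM rat 2) for Nppb, and −0.77 to 0.15 for Acta1 (positive without SCM rat 3). Without subtraction of group means, correlations that changed sign over single omissions were Nppa with Myh6 (−0.10 to 0.20), Nppb with Myh7 (−0.13 to 0.27) and Nppb with Myh6 (−0.26 to 0.35). After that subtraction, Myh7 with Myh6 went from −0.62 to 0.090 without control rat 5. The cause of these changes was not tested.

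Counts of genes called moved more. In the LV, the 727 calls went to 1625 by DESeq2, to 1789 when all 20 libraries shared a model, to 314 under the replicate block, and to 287 (without control rat 1) to 997 (without control rat 5) over single omissions, where control rats 1 and 3 and SCM rats 1, 2, 4 and 5 moved it over 1.5 times. In the brain, 28 calls became 402 by DESeq2, 15 under the replicate block and 4 (without control rat 3) to 112 (without SCM rat 3) over single omissions, each of which moved it over 1.5 times. For the tissue difference, 126 became 285 without the rat block and 10 (without control rat 3) to 217 (without control rat 5) over single omissions, where only control rat 4 and SCM rat 3 moved it less than 1.5 times. Equal replicate numbers join different rats, and same-numbered rats did not deviate together (r from −0.05 to 0.13 in LV and from −0.18 to 0.13 in brain), so the block is no pairing of animals. The planned share of Acta1 among actins was not run, since the second actin could not be matched. Depth limits Nppb in the brain, where 3 counts are up to 0.134 CPM.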
